A study of Drosophila melanogaster with 2 samples.

Results

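The vacuolar proton pump genes of the fly were followed through the nuclei of a nephrocyte dissection. Members were all genes whose FlyBase symbol starts with Vha, and 32 of the 15423 genes in the deposited count tables met this rule. The reference gene table holds 33 such symbols, and the identifier of the one that did not match a row, Vha44 (subunit C), was not analysed here. Nuclei came from adult flies aged 5 to 7 days. In a w1118 background these carried the driver Dot-Gal4, active in nephrocytes, and the reporter UAS-GFP.nls, a green fluorescent protein that goes to the nucleus. The sample labels give 1 female and 1 male sample and rearing at 18 °C, whereas the methods of the study give another temperature. Tissue of many flies was pooled, nuclei were sorted after a DNA stain and profiled by droplet-based single-nucleus RNA-seq, and there was no mutant, no treatment and no replicate. The 2 tables are called female-named and male-named after the deposit, since no sample record is tied to either of them.

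The vacuolar ATPase is a rotary motor that moves protons across membranes. Its soluble V1 sector splits ATP at a ring of A and B subunits. The central stalk of D and F turns within that ring, E and G form the outer stalks, and H sits where V1 meets the membrane. The turning ring of c and c″ subunits in the membrane-bound Vo sector carries the protons past subunit a. Further Vo subunits are d and e, and AC45 is an accessory protein. The pump acidifies endosomes and lysosomes in nearly every cell. In the apical membrane of insect epithelia such as the Malpighian tubule it supplies the proton gradient that drives ion transport and fluid secretion. Several subunits are encoded by more than 1 fly gene, and many of the additional copies are known for expression in the testis.

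The female-named table held 7890 barcodes and 19107558 unique molecular identifiers (UMIs, single captured transcripts). The male-named one held 5978 barcodes and 18130609 UMIs, with medians of 1315 and 1481 UMIs per nucleus and 14 barcodes in common. The male-specific roX1 RNA stood at 675 CPM, the UMIs of a gene per 1000000 UMIs, in the female-named and 17854 CPM in the male-named table. Nuclei were clustered together without the members, and clusters were named by marker lists, which gave 46 groups. Of these, 11 were classes with a name, and the remaining 35 are called by their leading genes. The labelled cell type was a small part of the nuclei, since the nephrocyte-like class held 39 and 60 nuclei of the female-named and male-named tables, with each of the 8 measured nephrocyte markers raised. Each sex has 1 table and all groups share their nuclei's preparation, so no test was made. Intervals are exact 95% limits for counting error only, and UMIs are 3′ tags that allow a gene to be compared between groups but not with another gene. A member was called higher in a group when the ratio of its CPM to that of all other nuclei in the same table was 3 or more and its interval lay above 1, in every table with at least 20 nuclei of the group. Lower was the mirror image, and only genes with at least 20 UMIs were assessed.

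The members together gave 58413 UMIs (3057 CPM) in the female-named and 44230 UMIs (2440 CPM) in the male-named table. They divided by spread over the groups. A set of 14 members was common, meaning that the lower limit of their level reached 10 CPM in at least 3 in 4 of the 11 named classes. Common members covered each measured V1 subunit with Vha68-2 (A), Vha55 (B), Vha36-1 (D), Vha26 (E), Vha14-1 (F), Vha13 (G) and VhaSFD (H). In the Vo sector they were Vha100-1 and Vha100-2 (a), Vha16-1 (c), VhaPPA1-1 (c″), VhaAC39-1 (d) and VhaM9.7-b (e), and the accessory gene was VhaAC45. Of the other 18 members, 5 were restricted to 1 or 2 groups, 7 were intermediate and 6 had too few UMIs to place. The 14 common genes therefore gave 1 gene for every measured subunit, with subunit a as the exception that had 2.

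Among the named classes Vha55, a nucleotide-binding subunit, lay between 102 CPM in fat body-like and 341 CPM in midgut enterocyte-like nuclei. Vha16-1, the proton-carrying c subunit, lay between 502 CPM in fat body-like and 3154 CPM in midgut enterocyte-like nuclei. Of the 14 common members, all but 2 peaked among the named classes in midgut enterocyte-like nuclei, the exceptions being Vha100-1 (nephrocyte-like) and VhaPPA1-1 (tubule principal-like). Outside the named classes, 13 of the 14 reached their highest level of all groups in the nuclei described next. Free RNA can add to a low level that is shared by all groups, and its part was not tested.

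**Figure D1:**
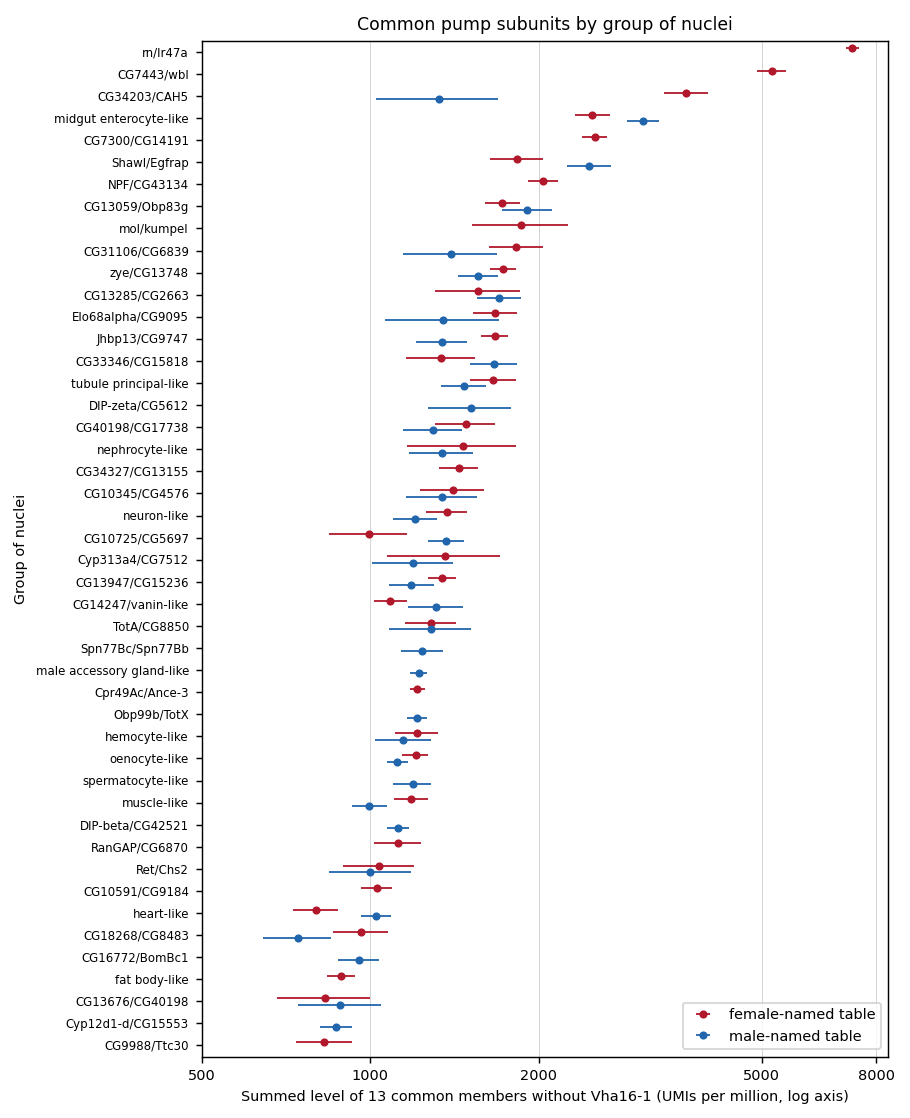
Summed level of the 13 common members other than Vha16-1 (x, CPM, log axis) in each of the 46 groups of nuclei (y), with exact 95% counting intervals, for the tables with at least 20 nuclei of the group. The rn/Ir47a group stands at 7252 CPM and the CG7443/wbl group at 5205 CPM, both from the female-named table, while fat body-like nuclei stand at 887 CPM.

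The pump subunits were highest in a group of 117 nuclei led by rn and Ir47a, all of them in the female-named table. Of the 14 common members 13 were higher there, with Vha100-1 as the exception. Common members summed to 12262 CPM (12018 to 12509) in the group, against 2632 CPM in the rest of the table. Without Vha16-1, which alone gave 3942 of the UMIs, the sum was 7252 CPM against 1397 CPM, a ratio of 5.19 (5.04 to 5.34). Of the 26 members listed there, 17 could be assessed and 13 were higher, where 2.22% of all 9512 assessed genes were. The median ratio of the 14 common members was 5.75, against 0.94 over all assessed genes.

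Every measured V1 subunit was among the 13. Vha68-2, the catalytic A subunit, had 640 UMIs and 813 CPM in rn/Ir47a nuclei against 125 CPM in all other nuclei, a ratio of 6.49 (5.94 to 7.09). Vha55 had 740 CPM against 179 CPM, a ratio of 4.12 (3.77 to 4.51). The rotor subunits Vha36-1 and Vha14-1 had ratios of 6.90 and 7.12, the stator subunits Vha26 and Vha13 6.76 and 5.23, and VhaSFD, the H subunit, 3.66. In Vo, VhaPPA1-1 had the widest gap, 487 CPM in rn/Ir47a nuclei against 54.9 CPM elsewhere, a ratio of 8.86 (7.86 to 9.98). Vha16-1 had 5010 CPM against 1235 CPM, a ratio of 4.06 (3.92 to 4.20), and VhaAC39-1, VhaM9.7-b and the accessory VhaAC45 had ratios of 6.27, 5.18 and 6.44.

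The other 4 assessed members each have a called gene for the same subunit. Vha100-1 stood at 133 CPM in rn/Ir47a nuclei against 141 CPM in all others, a ratio of 0.95 (0.77 to 1.15). VhaM9.7-c, a further e subunit gene, had a ratio of 1.27 (0.70 to 2.12), and Vha68-1, a further A subunit gene, 0.93 (0.37 to 1.96). Vha36-3, a further D subunit gene, had 0 UMIs there, where 3 UMIs would have made 3.81 CPM.

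Single nuclei showed the gap as well, with some overlap. The sum of the common members per nucleus had a median of 18484 CPM and ran from 2904 to 79042 CPM in rn/Ir47a nuclei, against a median of 2134 CPM and a range of 0 to 48508 CPM in all other nuclei of the table. The lower quartile of the group, 9148 CPM, lay above the upper quartile of the others, 3419 CPM. Vha13, the G subunit, had a UMI in 108 of 117 rn/Ir47a nuclei (92.3%, 85.9 to 96.4%). In the whole female-named table the count was 2211 of 7890 nuclei (28.0%). In fat body-like nuclei, a shallow class with low pump levels, it was 113 of 983 (11.5%, 9.57 to 13.7%). The median depths of rn/Ir47a and fat body-like nuclei were 3498 and 959 UMIs. After each nucleus was thinned to 500 UMIs, the shares with a Vha13 UMI in these 2 groups were 35.0% (26.5 to 44.4%) and 4.68% (3.45 to 6.19%).

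Depth divided the group within itself. Its nuclei were ordered by UMIs and cut into 5 bins of near-equal size, in which the common members summed to 24675, 27368, 24344, 15698 and 6220 CPM from the shallowest to the deepest. The leading gene rn followed with 1163, 1236, 1293, 738 and 279 CPM, against 3.49 CPM in all other nuclei. SPR, the sex peptide receptor gene, followed with 15182 CPM in the shallowest and 2280 CPM in the deepest bin, against 68.3 CPM elsewhere. The 10 fat body markers ran the opposite way, from 3552 CPM in the shallowest to 13098 CPM in the deepest bin, with 14205 CPM in all other nuclei. Vha100-1 stayed between 92.3 and 149 CPM. The part of the fat body RNA in these values was not tested. Without the deepest bin, the same count of 13 members was higher and the median ratio of the common members was 10.1, from 0.79 for Vha100-1 to 16.9 for VhaPPA1-1.

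**Figure D2:**
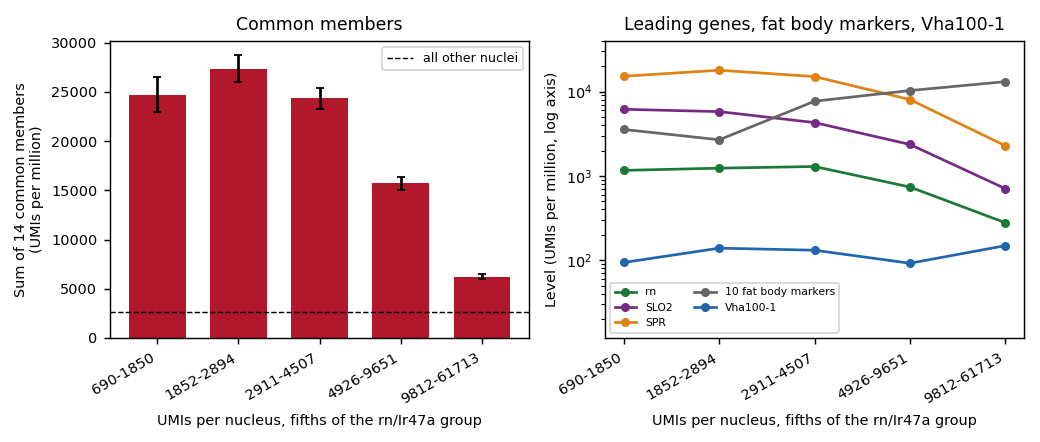
The rn/Ir47a nuclei in 5 bins by UMIs per nucleus (x). Left, the sum of the 14 common members (bars, CPM, with exact 95% counting intervals), with the 2632 CPM of all other nuclei as a dashed line. Right, the leading genes rn, SLO2 and SPR, 10 fat body markers and Vha100-1 (CPM, log axis), where Vha100-1 keeps to between 92.3 and 149 CPM.

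The identity of the rn/Ir47a nuclei was not settled by the marker lists. Of 10 tubule principal markers 3 were raised, the phosphatase gene Alp4, the chloride channel gene Best2 and the potassium channel gene Irk1, while Uro and CapaR were at 0. ZnT35C, Eglp2, Eglp4, Irk3 and List were not raised either. The list with the next highest share raised was ejaculatory duct and bulb, with 1 of 4. Uro marks principal cells of the main segment and CapaR was placed by the study in the initial to main segments. Whether the nuclei are principal cells of another segment was not tested. All 117 were female-named, whereas tubule principal-like nuclei came from both tables, with 82 and 81. SPR, a leading gene of the group, was not on the list, and the study uses it together with high Alp4 to mark principal cells of the lower tubule and upper ureter. By the list a name needed 4 raised markers. Of 13 partner genes of the pump, 3 were higher in the group. These were CAH1, which encodes a carbonic anhydrase, with 1698 CPM against 342 CPM and a ratio of 4.97 (4.68 to 5.27), the chloride channel gene ClC-a with 319 CPM against 76.4 CPM and a ratio of 4.17 (3.63 to 4.78), and the sodium/proton exchanger gene Nhe2 with 259 CPM against 67.4 CPM and a ratio of 3.85 (3.30 to 4.47). ATP6AP2, a pump accessory gene outside the symbol rule, also had a ratio of 6.30 (5.56 to 7.13). Mitf, a transcription factor of lysosomal genes, had a ratio of 0.95 (0.81 to 1.11), and Rbcn-3A and Rbcn-3B, which help the pump assemble, had ratios of 0.79 (0.50 to 1.19) and 1.08 (0.83 to 1.38).

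A second group followed at a lower level. The CG7443/wbl group held 108 nuclei, all in the female-named table, with the immune peptide genes Drs and Def among its leading genes. The marker list with the highest share raised was ejaculatory duct and bulb, with 1 of 4 (EbpIII). Tubule principal came second with 2 of 10 raised and Uro and CapaR at 0, so the lists gave the group no name. Of 17 assessed members 9 were higher there, where 4.76% of all assessed genes were higher. They were Vha68-2, Vha26, Vha14-1, Vha13, VhaSFD, VhaPPA1-1, VhaAC39-1, VhaM9.7-b and VhaAC45. Vha14-1, a rotor subunit, had 306 CPM in CG7443/wbl nuclei against 59.6 CPM in all others, a ratio of 5.14 (3.95 to 6.59). Vha26 had 857 CPM against 212 CPM, a ratio of 4.05 (3.47 to 4.69). Vha55, Vha36-1 and Vha100-2 fell short of the fold with 2.59, 2.94 and 2.57, as did Vha16-1 with 2.03 (1.87 to 2.21). Vha100-1 had 125 CPM against 140 CPM, a ratio of 0.89 (0.59 to 1.30). The median ratio of the common members was 3.44, against 0.85 over all assessed genes. ATP6AP2 had a ratio of 4.75 (3.74 to 5.96), and of the 13 partners 0 were higher. Nha1, a sodium/proton antiporter gene, was lower with 1 UMI, as were 4.54% of all assessed genes. At a coarser clustering the best match of this group was also the best match of the CG34203/CAH5 group described below, with overlaps of 44.9% and 40.3%. In that shared group 0 members were called higher. At a fold of 5 only Vha14-1 was called higher in CG7443/wbl nuclei.

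**Figure D3:**
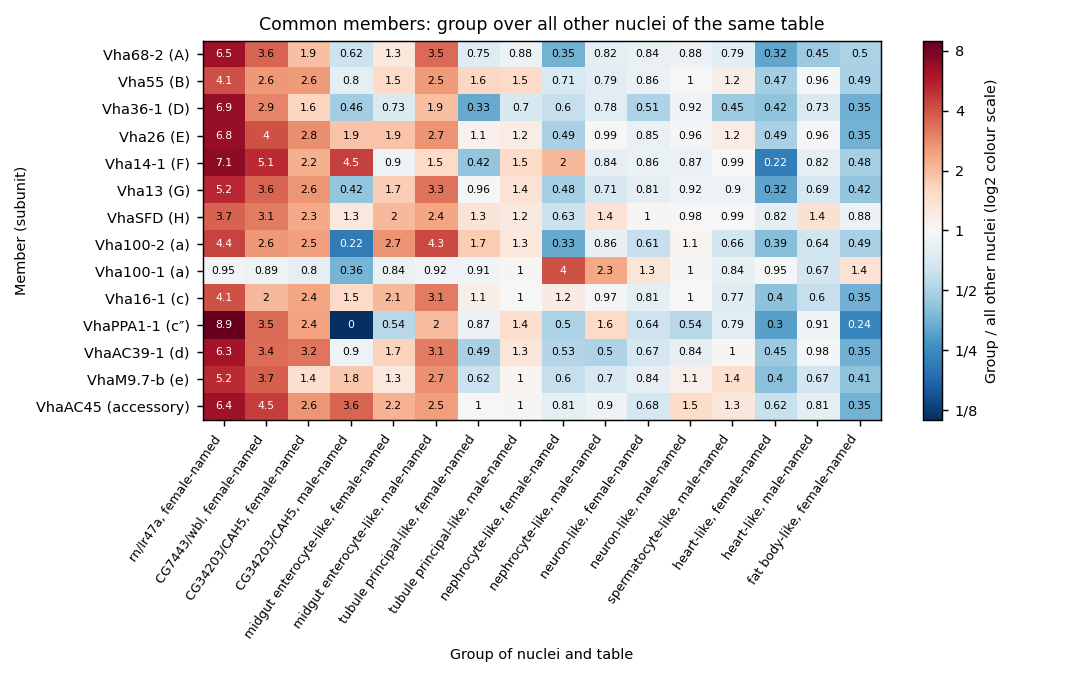
Ratio of each common member's level in a group to its level in all other nuclei of the same table (colour, log2 scale, with the ratio printed in each cell), for 10 groups of nuclei and the tables with at least 20 nuclei of the group. The rn/Ir47a column reads from 0.95 for Vha100-1 to 8.86 for VhaPPA1-1, and Vha100-1 is the only member above 1 in both nephrocyte-like columns.

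Midgut enterocyte-like nuclei had more pump RNA than most in both tables, below the fold of 3. With 124 and 122 nuclei in the female-named and male-named tables, their common members summed to 5300 CPM (5044 to 5566) and 6588 CPM (6293 to 6892), against 2992 and 2325 CPM in the rest of those tables. Per nucleus the medians were 5665 and 6360 CPM, against 2136 and 1976 CPM. By the rule 0 of 26 assessed members were higher, where 1.44% of all assessed genes were higher. Vha100-2, an a subunit, came nearest, with 284 CPM against 105 CPM in the female-named table, a ratio of 2.69 (2.14 to 3.34), and 381 CPM against 89.4 CPM in the male-named table, a ratio of 4.26 (3.48 to 5.18). Vha16-1 had ratios of 2.05 (1.92 to 2.20) and 3.12 (2.92 to 3.32). The rn/Ir47a and CG7443/wbl nuclei are part of the reference in the female-named table only, and with both left out 1 member, Vha100-2, was called higher. The male-named table alone gave 5, which were Vha100-2, Vha16-1, Vha68-2, Vha13 and VhaAC39-1. Vha100-1 again stood near the others, at ratios of 0.84 (0.59 to 1.17) and 0.92 (0.67 to 1.24).

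A pair of unnamed groups also lay above the rest. The Shawl/Egfrap group, with 163 and 165 nuclei and 3 of 8 tubule stellate markers raised, had 4032 CPM (3749 to 4330) of common members against 3019 CPM in the female-named table, and 5607 CPM (5276 to 5953) against 2358 CPM in the male-named table. Its median ratios over the common members were 1.12 and 1.85, with 9 and 12 of 14 above 1, against medians of 0.59 and 0.60 over all assessed genes. The stellate markers raised in this group were SecCl, Drip and Prip, while tio was at 0 and ClC-a was called lower. It also raised 2 of 14 midgut enterocyte markers, so the lists did not settle what these nuclei are. The CG7300/CG14191 group, 218 nuclei of the female-named table, had 4481 CPM (4313 to 4653) against 2981 CPM, with each of the 14 common members above 1 and a median ratio of 1.58, against 0.93 over all assessed genes.

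The CG34203/CAH5 group, which has the hindgut factor gene byn among its 10 leading genes and raised 3 of 4 female germline and 3 of 8 tubule stellate markers, held 69 and 28 nuclei. Its common members summed to 6943 CPM (6502 to 7406) against 3001 CPM in the female-named table, and to 3102 CPM (2629 to 3637) against 2390 CPM in the male-named table. Without Vha16-1 the sums were 3663 CPM against 1624 CPM in the female-named table and 1327 CPM against 1225 CPM in the male-named table, the second with a ratio of 1.08 (0.84 to 1.38). The median ratios of the common members were 2.39 and 0.85, with 13 and 6 of 14 above 1, against medians of 0.70 and 0.15 over all assessed genes. Of 26 assessed members 0 were higher, where 0.886% of all assessed genes were higher. VhaAC45 had ratios of 2.65 (1.79 to 3.77) and 3.61 (1.65 to 6.88), the second from 9 UMIs. The male-named nuclei of the group held 152 UMIs of common members in all, so that the values of single genes there are imprecise. Of the 13 partners 1 was higher, the antiporter gene Nha2, with 948 CPM against 55.8 CPM and 898 CPM against 91.1 CPM, though 28 of the 44 male-named UMIs came from 1 nucleus.

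By the fold rule tubule principal-like nuclei did not stand apart. With 82 and 81 nuclei, 8 of 10 markers raised and Uro and CapaR among them, they had 3241 CPM (3029 to 3464) of common members against 3026 CPM in the female-named table, and 2653 CPM (2478 to 2837) against 2387 CPM in the male-named table. Of 26 assessed members 0 were called higher, where 1.24% of all assessed genes were. In nuclei of dissected Malpighian tubules, the study reported raised levels of the plasma membrane pump genes in principal cells of every tubule region. Here the nuclei came from a nephrocyte dissection and the reference was all other nuclei, so the 2 results are not like measures. The median ratios of the common members were 0.93 and 1.19, against 0.75 and 0.85 over all assessed genes. Vha55 was above the other nuclei in both tables, at ratios of 1.57 (1.25 to 1.95) and 1.54 (1.21 to 1.93), and Vha36-1 below, at 0.33 (0.14 to 0.65) and 0.70 (0.33 to 1.30). The interval of the female-named sum, 3029 to 3464 CPM, lay below that of rn/Ir47a nuclei, 12018 to 12509 CPM.

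The common members were low in several groups. Fat body-like nuclei, 983 of them in the female-named table, had 1390 CPM (1327 to 1455) of common members against 3149 CPM. Of 17 assessed members only VhaPPA1-1 was called lower, with 18.3 CPM against 76.7 CPM. In that class 18.0% of all assessed genes were lower, so this call does not set the members apart. The median ratio was 0.42 for the common members and 0.74 over all assessed genes. In heart-like nuclei the sum was 1372 CPM (1278 to 1472) against 3080 CPM in the female-named table and 1740 CPM (1659 to 1823) against 2430 CPM in the male-named table. The median ratios of the common members were 0.41 and 0.77 there, beside 0.45 and 0.58 over all assessed genes. The common members thus lay below the median of all assessed genes in the female-named table and above it in the male-named table. The heart-like nuclei also raised 7 of 9 muscle markers, whose part was not tested. In the CG9988/Ttc30 group, found in the female-named table only, 5 of 17 members were lower, where 7.52% of all assessed genes were lower. These were Vha68-2, Vha26, Vha14-1, VhaPPA1-1 and VhaAC39-1, at ratios between 0.26 and 0.31. Elsewhere, as in fat body-like nuclei, only 1 or 2 members were lower in a group, too few to set apart from the share of all genes. VhaM9.7-b was lower among 26 assessed in CG13676/CG40198 nuclei (1.27% of all assessed genes) and Vha36-3 among 17 in Cpr49Ac/Ance-3 nuclei (3.55%). Of 24 assessed, Vha14-1 was lower in Cyp12d1-d/CG15553 nuclei (17.0%), Vha68-3 in DIP-beta/CG42521 nuclei (4.37%) and both Vha36-2 and Vha36-3 in Obp99b/TotX nuclei (7.03%).

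The 2 common a-subunit genes took different shares by group. Vha100-2 gave 75.3% (71.0 to 79.3%) of the 437 UMIs of the 5 a-subunit genes in rn/Ir47a nuclei, 68.6% (57.7 to 78.2%) of 86 in CG7443/wbl nuclei and 69.4% (63.6 to 74.7%) of 281 in midgut enterocyte-like nuclei. Its share was 13.8% (8.09 to 21.4%) of 116 UMIs in nephrocyte-like nuclei and 22.5% (18.0 to 27.5%) of 320 in fat body-like nuclei, with a median of 36.7% over the 46 groups. Most of the rest came from Vha100-1, whose share ran from 24.0% in rn/Ir47a to 85.3% in nephrocyte-like nuclei. In midgut enterocyte-like nuclei the 2 tables gave near-equal Vha100-2 shares, 68.3% (59.4 to 76.3%) and 70.3% (62.5 to 77.4%). Tubule principal-like nuclei lay between, with 58.1% (47.0 to 68.7%) and 40.4% (30.4 to 51.0%) in the female-named and male-named tables. In the annotation Vha100-1 overlaps the gene Alg13 and Vha100-2 the gene Vti1b. Where strand was not used, their tags may not be told apart from those of these genes. This limit holds for every value of Vha100-1 and Vha100-2 given here.

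**Figure D4:**
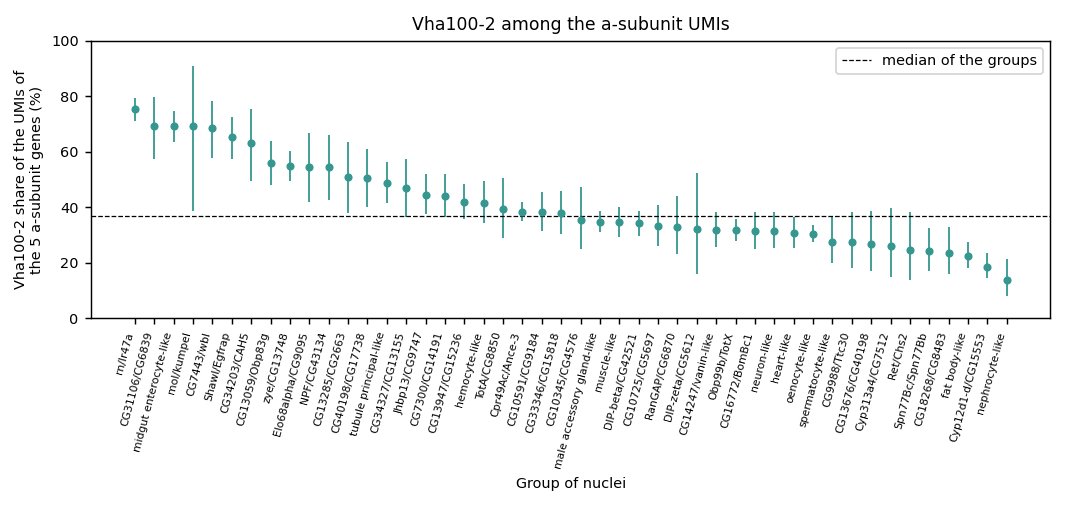
Share of Vha100-2 among the UMIs of the 5 a-subunit genes (y, %, tables summed) in each of the 46 groups (x), with exact binomial 95% intervals and the median of the groups as a dashed line. The share is 75.3% in rn/Ir47a and 13.8% in nephrocyte-like nuclei.

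Vha100-1 also kept apart from its partners across groups. Over the 46 groups, with both tables summed, the level of each other common member followed the summed level of the remaining common members with r between 0.77 for Vha16-1 and 0.94 for Vha13. For Vha100-1 r was -0.42. Without the 2 groups with the highest sums it was -0.51, and the other members ran from 0.63 for Vha16-1 to 0.91 for Vha13. The points share 2 libraries and a total that fixes all levels, and these values are a description. The level of Vha100-1 was highest in nephrocyte-like nuclei, at 432 CPM, and lowest in NPF/CG43134 nuclei, at 62.0 CPM.

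In the nephrocyte-like nuclei themselves, Vha100-1 had 31 and 68 UMIs in the female-named and male-named tables. These made 560 CPM (381 to 795) against 139 CPM elsewhere in the table, a ratio of 4.03 (2.73 to 5.73), and 391 CPM (304 to 496) against 168 CPM, a ratio of 2.32 (1.80 to 2.96). The lower of these missed the fold of 3, so that 0 of 26 assessed members were called, where 1.24% of all assessed genes were higher. At a fold of 2 Vha100-1 was called. Vha100-2 had 2 and 14 UMIs, at ratios of 0.33 (0.040 to 1.21) and 0.86 (0.47 to 1.44). The common members summed to 3126 CPM (2678 to 3628) and 2476 CPM (2247 to 2721), against 3028 and 2391 CPM in all other nuclei. Without Vha16-1 the sums were 1464 and 1341 CPM, against 1639 and 1225 CPM. The median ratios of the common members were 0.60 and 0.85, and 3 of 14 were above 1 in each table. Over all assessed genes the medians were 0 and 0.65. Many assessed genes had no UMI in the few female-named nuclei, so the first of these is a poor reference. The intermediate e subunit gene VhaM9.7-c and the A subunit gene Vha68-1 reached their highest level over the groups in this class too, at 39.3 CPM (18.0 to 74.6) and 26.2 CPM, from 9 and 6 UMIs, which other groups overlapped. VhaM9.7-c overlaps the genes CG18675 and Teh2 in the annotation, with the same limit on its tags.

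Of the restricted members 4 belonged to the spermatocyte-like class, 74 nuclei found in the male-named table, with 16 of 18 spermatocyte markers raised. They were Vha16-3 and Vha16-5, copies of the c subunit, Vha100-3, a copy of a, and Vha14-2, a copy of F. None of the first 3 is listed in the female-named table, and Vha14-2 had 2 UMIs there. Since these 4 were chosen for being higher in the class, and Vha16-3, Vha16-5 and Vha100-3 reached 20 UMIs only with their UMIs there, the following values describe that choice and support nothing. Together they had 80 UMIs in spermatocyte-like nuclei, 148 CPM (117 to 184), against 63 UMIs and 3.58 CPM (2.75 to 4.58) in all other male-named nuclei and 0.10 CPM in the female-named table. In all, 6 of 24 assessed members were higher in the class. The share over all assessed genes is 18.9%, so that 6 of 24 is near the background. At a coarser clustering these nuclei formed no group of their own, and 3 members, Vha16-3, Vha16-5 and Vha36-3, counted as restricted.

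Vha16-5 (2L, 10736319 to 10737043 in the reference annotation) had 23 UMIs in spermatocyte-like nuclei against 10 in all other male-named nuclei, 42.6 CPM (27.0 to 63.9) against 0.57 CPM. Vha16-3 (3L, 11473291 to 11473972) had 20 UMIs against 16, 37.0 CPM (22.6 to 57.2) against 0.91 CPM. Its neighbour Vha16-2, which lies 985 bases away, had 9 UMIs against 4 and was too rare to be assessed. Vha14-2 (3R, 6122592 to 6124405) had 26 UMIs against 24, 48.1 CPM (31.4 to 70.5) against 1.36 CPM. Vha100-3 had 11 UMIs against 13, 20.4 CPM (10.2 to 36.4) against 0.74 CPM, and it overlaps the gene sano in the annotation, so its tags may not be told apart from those of sano where strand was not used.

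Vha68-3, a copy of A, and Vha36-2, a copy of D, were also higher in spermatocyte-like nuclei, with 17 UMIs against 29 and 10 UMIs against 35. They count as intermediate because 47.9% and 33.2% of their level, with groups weighted equally, lay in the class, where restriction required over 50%. Vha68-3 lies 178 bases from Vha68-2, the common A gene. How tags that match more than 1 copy were counted is not known here, so the values of single copies are uncertain to that extent. Among the rarest members, VhaPPA1-2, a copy of c″, had 5 of its 13 UMIs in the class, Vha16-4 had 4 of 11, and VhaM9.7-a, an e subunit gene, had 3 of 15. VhaM9.7-d, a further e subunit gene, did not share the pattern, with 1 of 22 UMIs there.

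The common members were present in spermatocyte-like nuclei beside these copies. Their sum was 2097 CPM (1977 to 2223) against 2401 CPM in all other male-named nuclei, and their median ratio was 0.94, where the median over all assessed genes was 1.19. Vha14-1, the common F gene, had a ratio of 0.99, and Vha36-1, the common D gene, 0.45 (0.23 to 0.82). As a description of the same choice, at least 1 UMI of the 4 restricted copies was seen in 29 of 74 nuclei (39.2%, 28.0 to 51.2%), and 16 nuclei held more than 1 of the 4 genes. In midgut enterocyte-like nuclei of the same table the count was 0 of 122 (0 to 2.98%), and in muscle-like nuclei 1 of 415 (0.24%). The median depths were 3659, 1487 and 1109 UMIs. After thinning to 500 UMIs, Vha16-5 and Vha14-2 were each left in 2 of 74 nuclei (2.70%, 0.33 to 9.42%). Outside the class, male accessory gland-like nuclei held the most, 23 of the 63 UMIs, at 8.66 CPM. Those nuclei also held 593 CPM of the 18 spermatocyte markers, against 5580 CPM in spermatocyte-like nuclei, and the part of that RNA in the 23 UMIs was not tested.

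**Figure D5:**
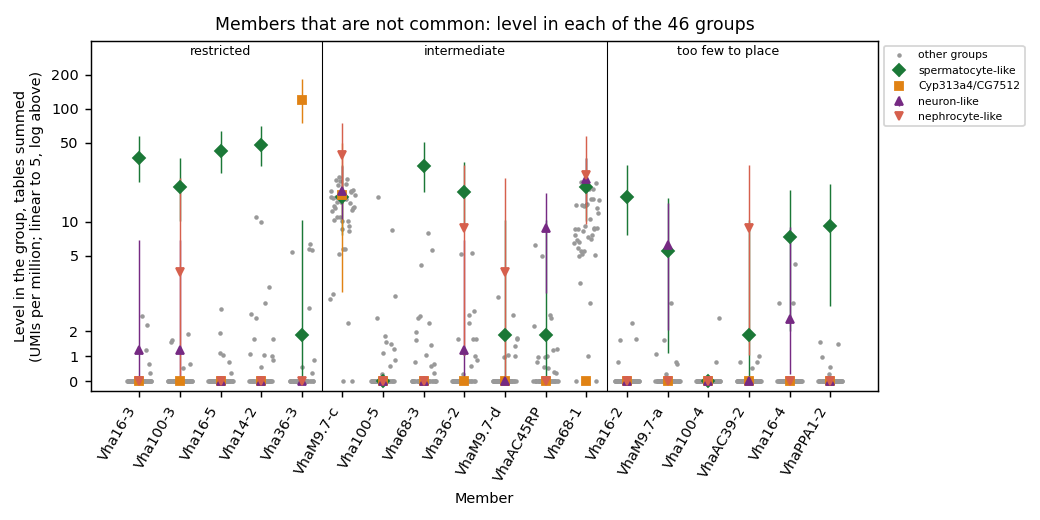
Level of each of the 18 members that are not common (x) in the 46 groups (y, CPM with both tables summed, linear to 5 and logarithmic above). Diamonds are spermatocyte-like, squares Cyp313a4/CG7512, upward triangles neuron-like and downward triangles nephrocyte-like nuclei, with exact 95% counting intervals where a UMI was seen. Spermatocyte-like nuclei are at 48.1 CPM for Vha14-2 and Cyp313a4/CG7512 nuclei at 120 CPM for Vha36-3.

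The other restricted member was Vha36-3, a D subunit gene on X (2579091 to 2580560). Since Vha36-3 was placed by being higher in the 2 groups below, its values there describe that choice and support nothing. It was highest in the Cyp313a4/CG7512 group, with 13 UMIs in 32 female-named nuclei and 8 UMIs in 57 male-named nuclei. These made 233 CPM (124 to 399) against 0.58 CPM for the rest of the female-named table, and 67.3 CPM (29.0 to 133) against 1.72 CPM for the rest of the male-named table. The UMIs came from 8 of 32 and 7 of 57 nuclei. It was the only member called in that group, of 26 assessed, where 0.878% of all assessed genes were higher. The group had 3 of 7 tracheal markers raised (btl, trh and serp), under the 4 a name needed. Its common members summed to 2671 CPM (2260 to 3136) against 3030 CPM, and to 2371 CPM (2102 to 2665) against 2392 CPM. Vha36-1, the common D gene, had ratios of 0.60 (0.12 to 1.74) and 0.95 (0.31 to 2.24). In male accessory gland-like nuclei Vha36-3 was the only one of 24 members called, with 17 UMIs in 605 nuclei, 6.40 CPM (3.73 to 10.2) against 1.42 CPM. There 5.86% of all assessed genes were higher, so 1 of 24 does not stand out from that share.

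The remaining members were rare. Neuron-like nuclei, 126 and 81 in the female-named and male-named tables, held 7 of the 31 UMIs of VhaAC45RP, an AC45-related gene, and 5 of the 15 UMIs of VhaM9.7-a. VhaAC45RP had ratios of 16.4 (4.62 to 48.1) and 9.02 (0.96 to 42.3), so that the interval of the male-named table did not pass 1 and 0 of 26 members were called, where 3.22% of all assessed genes were higher. Vha100-5, an a subunit gene with 25 UMIs in all, had 5 in midgut enterocyte-like nuclei and 3 in the CG34203/CAH5 group. Vha100-4 had 4 UMIs and VhaAC39-2, a copy of d, had 10. The 6 members Vha16-2, Vha16-3, Vha16-4, Vha16-5, Vha100-3 and VhaM9.7-d are not listed in the female-named table. That table would show 3 UMIs as 0.16 CPM, and whether a gene without a UMI was dropped from it is not given in the sources used here.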

How the data were processed

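Nuclei of dissected nephrocytes were profiled by droplet-based snRNA-seq. The authors deposited raw UMI counts, 1 table for each sex name, and their processing notes list FastQC, Cell Ranger and Seurat. No genome build or tool version stands in the sources used here. The sample labels give an earlier version of the library kit than the methods of the study. Columns are bare barcodes, so no sample was tied to a table and no sex was assigned. Every barcode had at least 500 UMIs.

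Symbols came from a reference list of FlyBase identifiers, in which 68 of 15423 genes had none. Coordinates come from the reference annotation (assembly BDGP6), not from the authors' files. Clustering used nuclei with 200 genes or more and genes seen in 3 nuclei or more, without the members, in Python 3.11.15 with scanpy 1.11.5 and leidenalg 0.10.2 (scale of 10000 per nucleus and log, 2000 variable genes, 30 principal components, 15 neighbors, Leiden resolution of 2), and gave 56 clusters. A marker was raised at 3 times the CPM of all other nuclei with its lower Poisson limit above that CPM. A cluster took the name of the list with the highest share of raised markers, from 20 lists, if at least 4 were raised and no other list had more of its genes among the 10 leading ones. The minimum of 4 was set after names had been seen. Clusters with 3 stayed unnamed. These were Cyp12d1-d/CG15553 (0.11% of female-named and 12.2% of male-named nuclei), CG40198/CG17738 (2.37% and 3.91%), Shawl/Egfrap (2.07% and 2.76%), CG34327/CG13155 (2.24% and 0.067%), rn/Ir47a (1.48% and 0%), CG34203/CAH5 (0.87% and 0.47%) and Cyp313a4/CG7512 (0.41% and 0.95%). Doublets were neither called nor removed.

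Counts were summed per table and group. Intervals are exact Poisson, Clopper-Pearson or conditional ratio intervals (scipy 1.17.1), and the fold rule was tested on simulated data. All members were described, with 13 partners (assembly factors, Mitf, proton exchangers, chloride channels and carbonic anhydrases). Restricted meant higher in 1 or 2 groups with over 50% of the level, summed over equally weighted groups, there. The members and lists were chosen with earlier results of these data known. Sequence comparisons of members were not made here.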

Additional observations from a re-analysis of the deposited data

How the results depend on the processing

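No paired analysis was possible because there is 1 table for each sex and no result comes from a test. The 13 members higher in rn/Ir47a nuclei and the 14 common members stayed within 1.5 times of those counts under every alternative run for them. For CG7443/wbl nuclei the count of 9 higher members was 0 at a Leiden resolution of 1 and 1 at a fold of 5. For midgut enterocyte-like nuclei the count of 0 became 1 with the members kept in the clustering, 4 at a fold of 2, 2 against the median of the other groups, 5 in the male-named table alone and 1 with rn/Ir47a and CG7443/wbl nuclei left out of the reference. For CG34203/CAH5 nuclei it became 2 at a fold of 2, 2 against the median, 1 in the female-named and 2 in the male-named table alone and 1 with that smaller reference. For neuron-like nuclei it became 1 with nuclei of at least 500 genes and 1 against the median, and for nephrocyte-like nuclei 1 at a fold of 2 and 2 in the female-named table alone. For spermatocyte-like nuclei 6 became 10 with no minimum of UMIs. The 5 restricted members were 3 at a resolution of 1. A mean over nuclei in place of summed counts gave common sums of 20624 CPM in rn/Ir47a, 8863 CPM in CG7443/wbl and 5362 CPM in CG34203/CAH5 nuclei of the female-named table, of 6024 and 7635 CPM in midgut enterocyte-like and 2061 and 2125 CPM in neuron-like nuclei of the female-named and male-named tables. Thinning to 500 UMIs left 35.0% of rn/Ir47a nuclei with a Vha13 UMI and 2.70% of spermatocyte-like nuclei each with a Vha16-5 and a Vha14-2 UMI, since fewer UMIs were kept. The cause of the other changes was not tested. No group overlapped by at least 25% with spermatocyte-like nuclei at a resolution of 1, nor with CG7443/wbl or nephrocyte-like nuclei among nuclei of at least 500 genes, so these gave no value. Naming with at least 3 raised markers, the smaller reference and leaving out the deepest of 5 bins of rn/Ir47a nuclei were chosen after seeing the data. Naming with at least 3 would also join rn/Ir47a nuclei to the tubule principal class, for which no count of higher members was made.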
